A study of Mus musculus with 137 samples.

Results

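The 51 genes described here encode the proteasome, its immune form and activators, and the machinery that loads peptides onto MHC class I. They were chosen by symbol alone, as every numbered symbol of the Psma to Psmg families plus Tap1, Tap2 and Tapbp, out of 34573 symbols in each of 3 deposited RNA-seq count tables, with symbols that had no counts dropped. The study grew macrophages from mouse bone marrow (BMDMs) and asked how mutations of Beclin 1, a subunit of a lipid kinase complex that acts in autophagy, bear on their activation. Mice were 7 weeks old, the marrow was cultured for 7 days in 20 ng/ml M-CSF, the growth factor of the macrophage lineage, and the cells then received LPS, a bacterial surface lipid, and IFN-gamma, a T and NK cell cytokine, at 100 ng/ml each for 0, 6 or 24 h. In 2 separate cohorts, called KO1 and KO2, knockout macrophages (KO) were Beclin1flox/flox-LysM-Cre+ and their controls (WT) were Beclin1flox/flox-LysM-Cre-, so that both genotypes carried floxed alleles and the deletion depended on a Cre driven from a gene of myeloid cells. In the cohort called KI, F121A macrophages were Beclin1F121A/F121A, a point mutant, and their controls (WT) were littermates. Together these make 18 groups with 137 libraries. A KO1 group has 3 sample numbers, here called cultures, each with 3 repeat libraries that were summed, a KO2 group has 8 libraries (7 for WT at 24 h) and a KI group has 6. The labels do not say which libraries came from separate mice, so p-values measure only the spread between these samples, which may be technical. KO1 libraries held 1898574 to 6579185 counts, KO2 libraries 1448218 to 15627379 and KI libraries 3574158 to 11786453, and the summed KO1 cultures held 7160692 to 13050478. Among the libraries, 2 carry a 6 h title and a 24 h description (1 of a KO1 KO culture and 1 of KI WT); both were kept at 6 h, as titled.

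The proteasome cuts ubiquitin-tagged proteins into peptides. Its core, the 20S particle, stacks rings of alpha subunits (Psma genes), which gate the entrance, and beta subunits (Psmb genes), of which Psmb5, Psmb6 and Psmb7 carry the active sites. The 19S regulator, built of ATPases (Psmc genes) and non-ATPase subunits (Psmd genes), recognises and unfolds tagged proteins. In cells exposed to interferon, Psmb8, Psmb9 and Psmb10 take the places of Psmb5, Psmb6 and Psmb7 in newly made particles, which are then called immunoproteasomes, and the PA28 ring of Psme1 and Psme2 can cap the core instead of the 19S regulator. Tap1 and Tap2 form the transporter that carries peptides into the endoplasmic reticulum, and Tapbp (tapasin) holds empty class I molecules beside it. In macrophages activated by IFN-gamma this set of genes is well known as a source of peptides for CD8 T cells.

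Several of the genes lie side by side in the class II region of the MHC on mouse chromosome 17 (coordinates in mm10). Psmb9 (chr17:34181987-34187764, minus strand), Tap1 (chr17:34187553-34197225, plus strand), Psmb8 (chr17:34197721-34201454, plus strand) and Tap2 (chr17:34203527-34216321, plus strand) follow each other within that stretch, with Tapbp at chr17:33915899-33929292. Psme1 (chr14:55578123-55581529, plus strand) and Psme2 (chr14:55587441-55591113, minus strand) are neighbours on chromosome 14, on the same chromosome as Psmb5 (chr14:54614119-54618022, minus strand). Psmb9 and Tap1 share 212 exon bases at their 5′ ends, which is 5.8% of the Psmb9 exons, and the libraries carry no strand, so reads in that overlap cannot be told apart. Likewise 498 exon bases of Psmb8 (14.7%) overlap the antisense gene Gm20496, 904 of Tapbp (24.9%) overlap Gm19412 and 405 of Psmb7 (11.8%) overlap Nek6.

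The following stretches upstream of 5 of these genes are shown because these genes carried the contrast between interferon-type and constitutive subunits in the results. They are RefSeq sequences on GRCm38.p6, written 5′ to 3′ on the strand named. The start of a gene here is the RefSeq start, which lies 474 bases inside Psmb8 and 434 bases inside Psmb9 as drawn by the GENCODE coordinates given above, so that those stretches fall within the GENCODE genes; for Tap1 and Psmb5 it lies 3 and 27 bases inside. Capitals mark matches to the motifs searched.
Tap1 and Psmb9, the bases between their RefSeq starts, chr17:34187331-34187555, plus strand: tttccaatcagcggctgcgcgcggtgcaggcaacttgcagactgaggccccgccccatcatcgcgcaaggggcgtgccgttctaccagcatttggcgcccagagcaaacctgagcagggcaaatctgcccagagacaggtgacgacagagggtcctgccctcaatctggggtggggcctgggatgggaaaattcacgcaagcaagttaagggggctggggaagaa
Psmb8, the 120 bases before its RefSeq start, chr17:34198075-34198194, plus strand: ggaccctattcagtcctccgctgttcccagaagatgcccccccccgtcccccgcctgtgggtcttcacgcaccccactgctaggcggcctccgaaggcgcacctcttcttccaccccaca
Psmb5, the 120 bases before its RefSeq start, chr14:54617996-54618115, minus strand: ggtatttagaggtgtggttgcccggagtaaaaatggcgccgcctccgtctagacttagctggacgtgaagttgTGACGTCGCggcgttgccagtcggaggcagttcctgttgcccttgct
Psmb6, the 120 bases before its RefSeq start, chr11:70525237-70525356, plus strand: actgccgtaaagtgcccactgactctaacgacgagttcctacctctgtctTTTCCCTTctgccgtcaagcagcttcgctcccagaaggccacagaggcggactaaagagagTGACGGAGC
Windows of 250 bases before to 50 bases after a start were at hand for 42 of the 51 members (45 windows). They were searched on both strands for the IRF motif AANNGAAA, its paired form (GAAA and GAAA with any 2 bases between), the antioxidant response motif TGACNNNGC and an NF-kB motif. The IRF motif, which can overlap its paired form, was found in 13 of the 45 windows (28.89%), against 23.92% of all 32851 windows in the RefSeq table. The paired form stood in 5 of 45 windows (11.11%), namely those of Psmb3, Psmd4, Psmd9, Psme1 and Psmg4, against 3.44% of all windows. The antioxidant response motif stood in 6 of 45 windows (13.33%), those of Psmb5, Psmb6, Psmc6, Psmd9, Psmd12 and Psme4, against 12.39% of all, and it is the match in capitals nearest the start in Psmb5 and Psmb6. The other match in the Psmb6 stretch is an IRF motif. The NF-kB motif was found in 1 window (2.22%), that of Psmd12, against 4.51% of all. No searched motif matched between Tap1 and Psmb9 or in the Psmb8 stretch, which says only that these letters are not in those stretches.

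All levels below are CPM (counts scaled to a common library size) adjusted with TMM factors, which set the bulk of genes level between libraries, and a fold change is a log2 value ± its standard error from edgeR's quasi-likelihood fit of that cohort. Each adjusted p is a Benjamini-Hochberg value over every gene tested in the cohort, and a gene is said to have risen or fallen where it is under 0.05. The scale matters here. TMM factors had group medians of 1.272 to 1.741 at 0 h, 0.679 to 0.841 at 6 h and 0.802 to 0.962 at 24 h. With plain library totals in place of TMM, every fold change over 0 h shifted, by -1.305 to -0.795 log2 units at 6 h and by -1.078 to -0.438 at 24 h across the cohorts and genotypes. Changes are thus relative to the median gene, and counts on library totals are given beside them where they differ. Becn1 fell in KO macrophages of both cohorts, with fold changes of -1.51, -1.52 and -1.41 at 0, 6 and 24 h in KO1 and -3.28, -3.31 and -2.63 in KO2. It differed by -0.08, 0.05 and -0.04 in KI without passing the test; 43.9% of its exon bases overlap Cntd1. All 6 macrophage markers found (6 of 7 symbols, Adgre1 unmatched) were present in every group, with sums of 2126 to 9859 CPM. Neutrophil markers at 0 h summed to 91.6 to 405 CPM in KO and 40.9 to 69.3 CPM in WT of KO1. The sums were 1.20 to 3.31 CPM in KO and 0.447 to 1.85 CPM in WT of KO2, and 4.15 to 8.36 CPM in F121A and 9.12 to 14.3 CPM in WT of KI. Only 2 of the 6 neutrophil markers had a median of at least 1 CPM in the KO1 and KI groups at 0 h, and 1 of 6 in those of KO2. Their part in the results below was not tested. Markers of B cells, of T and NK cells, of stromal cells and of dendritic cells summed to at most 5.23, 2.15, 21.3 and 30.98 CPM in any unit. Beside these, 2 KI libraries stood apart: F121A 0 h replicate 5 had a TMM factor of 1.181, under the group median of 1.741, and WT 6 h replicate 5 had 1309 CPM of Tap1, with 2112 to 2362 CPM in the other libraries of that group. Units of KO1 had 14.9 to 29.7 CPM of Ddx3y and at most 1.61 CPM of Xist in both genotypes. Those of KI had 64.5 to 228 CPM of Xist and at most 0.527 CPM of Ddx3y in both. In KO2 every WT library carried Xist RNA and every KO library Ddx3y RNA, so genotype and sex of the cells cannot be told apart there. In these bulk libraries, fewer cells of a type and less RNA per cell cannot be told apart either.

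In unstimulated KO2 WT macrophages Psmb6 had the highest level of all members, and Psmb8 and Psmb9 were far below it. Levels between genes are compared per kilobase of the principal transcript, and the order at rest is given for KO2 WT alone. In KI WT at 0 h Psmb6 was not the highest: Tapbp had a median of 299 CPM over 2898 bases and Psmb6 78.6 CPM over 798. The order also depends on the length used. Psmb6 has 798 bases in its principal transcript and 1872 in the union of its exons, while Psmb5 has 899 in both. In KO2 WT at 0 h, Psmb6 had the highest median of the 51 members at 168 CPM per kb, followed by Psma1 at 153, while Psmb8 ranked 24 at 30.97, Psmb10 ranked 30 at 24.4, Psmb9 ranked 39 at 12.8 and Tap1 ranked 40 at 12.3 CPM per kb. Tapbp was already abundant at rest, at 93.2 CPM per kb (rank 7). After 24 h the order had turned over. Tapbp (902 CPM per kb), Psme1 (746), Psmb8 (646), Psme2 (554) and Tap1 (543) took ranks 1 to 5, and Psmb6 stood at 263 (rank 8). In KI WT the same 5 genes ranked 1, 3, 2, 4 and 5 at 24 h, in that order of names. Psmb11, the thymus-specific active-site subunit, and Psma8, known from testis, were at the floor of the ranking, with medians of at most 2.82 and 1.35 CPM in any group.

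In WT macrophages most members were higher after stimulation, at 24 h in every cohort and at 6 h on the TMM scale in KO2 and KI. Counted over all members, 23 rose and 13 fell at 6 h in KO1 WT of 51 tested, where 56.7% of all genes tested were called (25.7% as higher and 31.1% as lower). In KO2 WT 37 of 49 rose and 4 fell, against 70.8% of genes called (32.5% as higher and 38.3% as lower). In KI WT 35 of 50 rose and 5 fell, against 73.5% (36.7% as higher and 36.8% as lower). On library totals the members split 12 and 28, 18 and 26, and 18 and 27 as higher and lower. All genes tested (13693, 10794 and 11500) split 1385 and 7851, 1802 and 7246, and 1763 and 8183 on that scale. At 24 h 42, 43 and 45 members rose in KO1, KO2 and KI WT and none fell by edgeR, where 41.9%, 59.3% and 63.8% of all genes were called in either direction. As higher 21.3%, 29.6% and 33.9% of genes were called, and as lower 20.6%, 29.7% and 29.9%. Library totals gave 28 higher and 6 lower, 33 and 5, and 26 and 8, and for all genes 1031 and 8761, 1696 and 5568, and 1634 and 7766. In WT of all 3 cohorts, 22 of the 49 members tested in each were higher at 6 h (21.8% of 10612 genes) and 39 at 24 h (18.4%). The members lower in all 3 at 6 h were Psma1, Psmg1 and Psmg2. Counting separation in place of a test, every 24 h unit lay above every 0 h unit for 44, 36 and 43 of the 51 members in KO1, KO2 and KI WT, against 26.4%, 15.8% and 24.7% of genes tested. On plain library totals this held for 33, 22 and 25 members, against 8.37%, 9.82% and 11.1% of genes. Leaving out 1 KO1 culture at a time gave 26 to 36 calls at 6 h and 40 to 42 at 24 h.

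Stimulation raised the interferon-type genes of WT macrophages in all 3 cohorts. Psmb8, Psmb9, Psmb10, Psme1 and Psme2 all rose at 6 h and at 24 h, with median 24 h fold changes of 3.54, 4.0 and 4.54 in KO1, KO2 and KI. The 15 constitutive 20S genes had medians of 1.84, 1.12 and 1.54, the 19S genes 1.5, 0.75 and 0.96, and all genes tested -0.11, -0.03 and 0.03. At 6 h the same medians were 2.33, 3.86 and 3.42 for the 5 interferon-type genes, 0.60, 1.19 and 1.59 for the constitutive 20S genes, -0.02, 0.45 and 0.51 for the 19S genes and -0.09, -0.11 and 0.004 for all genes. These 5 genes also passed the test as higher, at both times, on library totals.

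Psmb8, the immune counterpart of the chymotrypsin-like subunit Psmb5, had 105, 57.5 and 148 CPM in the 3 KO1 WT cultures at 0 h, 336, 417 and 501 CPM at 6 h and 997, 1140 and 1454 CPM at 24 h. In KO2 WT it ran at 39.9 to 58.4 CPM (median 50.4) at 0 h, 546 to 928 CPM (median 677) at 6 h and 751 to 1324 CPM (median 1051) at 24 h, and in KI WT at 40.5 to 49.5 CPM (median 44.2), 289.8 to 634 CPM (median 479) and 841 to 1240 CPM (median 1050). Every stimulated unit stood above every unstimulated one of its cohort. Its fold change over 0 h was 2.02 ± 0.40 for KO1, 3.80 ± 0.13 for KO2 and 3.42 ± 0.12 for KI at 6 h (adjusted p = 0.000297, 2.47e-34 and 5.17e-27 in that order) and 3.54 ± 0.43 for KO1, 4.37 ± 0.13 for KO2 and 4.56 ± 0.13 for KI at 24 h (adjusted p = 2.07e-06, 3.11e-36 and 1.28e-30). It went on rising between 6 and 24 h in each cohort, by 1.52, 0.56 and 1.15 log2 units in KO1, KO2 and KI. Psmb9, the counterpart of the caspase-like Psmb6, reached 301, 378 and 581 CPM in the KO1 cultures at 24 h, with 27.8, 18.2 and 63.3 CPM at 0 h. In KO2 it ran at 13.7 to 21.7 CPM (median 17.3) at 0 h, 214 to 312 CPM (median 262) at 6 h and 233 to 349 CPM (median 282) at 24 h, so that most of its gain was present at 6 h. The fold change of Psmb9 at 24 h was 3.53 ± 0.44 for KO1, 4.0 ± 0.12 for KO2 and 4.54 ± 0.13 for KI. Psmb10, the counterpart of the trypsin-like Psmb7, also rose, with medians of 31.9, 467 and 445 CPM at 0, 6 and 24 h in KO2 WT and a 24 h fold change of 3.72 ± 0.34 for KO1, 3.72 ± 0.13 for KO2 and 3.43 ± 0.15 for KI.

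The PA28 pair rose with them. Psme2 had 62.9, 37.9 and 51.8 CPM at 0 h, 566, 665 and 712 CPM at 6 h and 897, 748 and 862 CPM at 24 h in KO1 WT. In KO2 WT its range was 23.95 to 39.1 CPM (median 27.2) at 0 h, 574 to 1006 CPM (median 728) at 6 h and 456 to 757 CPM (median 533) at 24 h. No unit at 6 or 24 h came near the 0 h range. In both KO2 and KI the 6 h fold change of Psme2 was the larger one, 4.79 ± 0.14 and 4.87 ± 0.12, with 4.34 ± 0.14 and 4.59 ± 0.12 at 24 h. A near-identical copy, Psme2b-ps, held 31987 counts over all libraries, so the split of reads between it and Psme2 is uncertain. Psme1, the partner subunit, had 24 h fold changes of 3.52 ± 0.38 for KO1, 3.75 ± 0.14 for KO2 and 3.34 ± 0.09 for KI. Psme3, which forms a nuclear activator, and Psme4, which encodes PA200, changed less. At 24 h Psme3 rose by 1.16 in KO2 and stood at 0.45 and 0.45 in KO1 and KI without passing the test. Psme4 had 24 h fold changes of 0.64 in KO2 and 0.78 in KI, both past the threshold, and 0.41 in KO1, which was not.

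Among the loading genes Tap1 had the largest rise of the 51 members in KO2 and KI WT at both times. It had 108, 42.6 and 251 CPM in the KO1 WT cultures at 0 h, 1183, 1375 and 1792 CPM at 6 h and 1696, 1908 and 1843 CPM at 24 h. The KO1 cultures differed widely at rest, yet none came near the stimulated values. In KO2 WT it ran at 31.5 to 45.1 CPM (median 36.3) at 0 h, 2169 to 2875 CPM (median 2463) at 6 h and 1102 to 1683 CPM (median 1604) at 24 h, and in KI WT at 26.8 to 31.01 CPM (median 28.6), 1309 to 2362 CPM (median 2201) and 1277 to 1819 CPM (median 1581). The 6 h level thus exceeded the 24 h level in KO2, where the ranges do not overlap. Fold changes of Tap1 over 0 h were 3.44 ± 0.62 for KO1, 6.08 ± 0.14 for KO2 and 6.18 ± 0.14 for KI at 6 h and 3.76 ± 0.63 for KO1, 5.33 ± 0.13 for KO2 and 5.76 ± 0.13 for KI at 24 h. Tap2, the other chain of the transporter, had 24 h fold changes of 3.96 ± 0.40 for KO1, 4.21 ± 0.13 for KO2 and 4.43 ± 0.12 for KI, and Tapbp 2.88 ± 0.43 for KO1, 3.33 ± 0.10 for KO2 and 3.16 ± 0.11 for KI. On library totals the 6 h rise of Tapbp in KO1 WT was 0.72 (adjusted p = 0.0691), and in KO2 WT the change between 6 and 24 h of Tap2 and Tapbp turned positive (0.28 and 0.34). On the TMM scale those 2 changes were -0.08 and -0.03.

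**Figure D1:**
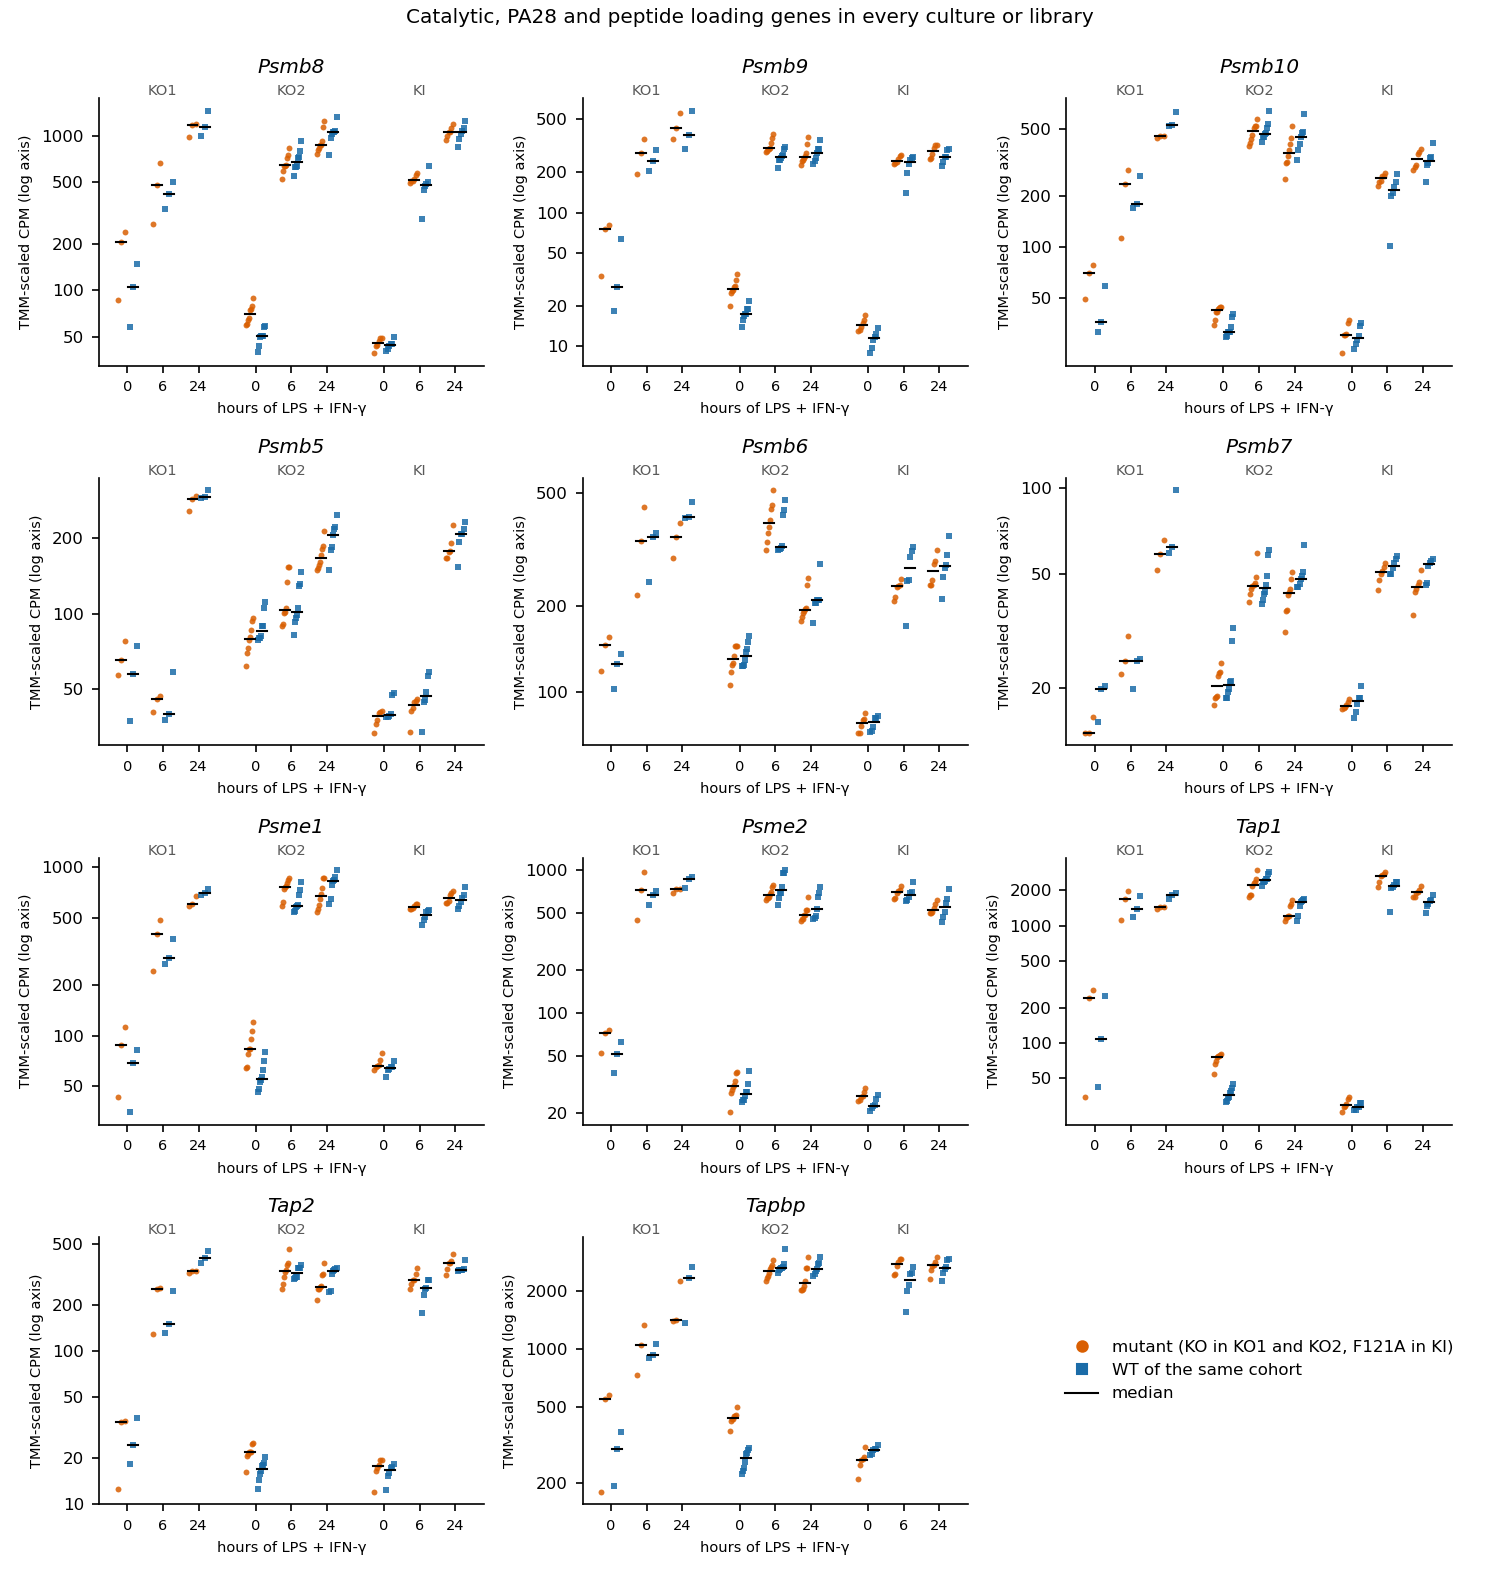
CPM (log axis, TMM-scaled) of the immune and constitutive catalytic subunits, PA28 and peptide loading genes at 0, 6 and 24 h in each cohort, with a point per KO1 culture or KO2 or KI library, a line at the median, and mutant macrophages left of WT at each time. In KO2, Psmb8 medians in WT climbed to 1051 CPM at 24 h, and at 0 h its KO and WT points do not overlap.

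The constitutive counterparts had smaller fold changes at 24 h. Psmb5 did not pass the test at 6 h in KO1 (-0.32 ± 0.24) or KI (0.18 ± 0.11) and was 0.30 ± 0.12 in KO2, a call that turned to -0.54 on library totals. Its KO2 WT range was 78.7 to 112 CPM (median 85.6) at 0 h, 82.02 to 146 CPM (median 102) at 6 h and 149 to 247 CPM (median 207) at 24 h. In KI WT it ran at 38.96 to 48.4 CPM (median 39.7), 33.95 to 58.7 CPM (median 47.1) and 154 to 231 CPM (median 207) at those times, so that the 24 h libraries stood clear of both earlier groups. At 24 h Psmb5 had risen by 2.39 ± 0.25 for KO1, 1.16 ± 0.12 for KO2 and 2.26 ± 0.11 for KI. Psmb6 rose at both times, with 24 h fold changes of 1.82 ± 0.26 for KO1, 0.65 ± 0.11 for KO2 and 1.84 ± 0.11 for KI, and fell back between 6 and 24 h in KO2 (-0.77 ± 0.11). Psmb7 rose at 24 h by 1.98 ± 0.21 for KO1, 1.14 ± 0.11 for KO2 and 1.54 ± 0.08 for KI; at 6 h it was 0.33 ± 0.21 in KO1 without passing the test, and -0.71 on library totals.

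Because each pair is read in the same library, the ratio of an immune subunit to the constitutive subunit whose place it takes does not depend on the scaling. Ratios are of CPM per transcript length and are given as a description. Psmb8 over Psmb5 was 1.01, 0.426 and 2.18 in the KO1 WT cultures at 0 h, 4.92, 3.94 and 6.95 at 6 h and 1.77, 2.16 and 2.78 at 24 h. In KO2 WT it ran at 0.276 to 0.348 (median 0.307), 3.002 to 3.98 (median 3.63) and 2.44 to 3.33 (median 2.81), and in KI WT at 0.506 to 0.634 (median 0.580), 4.71 to 5.97 (median 5.44) and 2.53 to 3.02 (median 2.94). In each cohort the median was highest at 6 h, when Psmb8 had risen by more than Psmb5, and lower again at 24 h. Psmb9 over Psmb6 had another course: its WT medians were 0.131, 0.495 and 0.546 in KO1, 0.0763, 0.429 and 0.784 in KO2 and 0.0899, 0.484 and 0.556 in KI at 0, 6 and 24 h. That ratio was still below 1 at 24 h in all 3 cohorts. Psmb10 over Psmb7 was above 1 in the WT medians of every cohort before stimulation, at 1.62, 1.36 and 1.52 in KO1, KO2 and KI, and stood at 7.36, 8.47 and 5.52 at 24 h. The size of a ratio depends on the length used: with the union of all exons in place of the principal transcript, the log2 Psmb8 over Psmb5 median in KO1 KO at 0 h was -0.27, not 0.78.

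**Figure D2:**
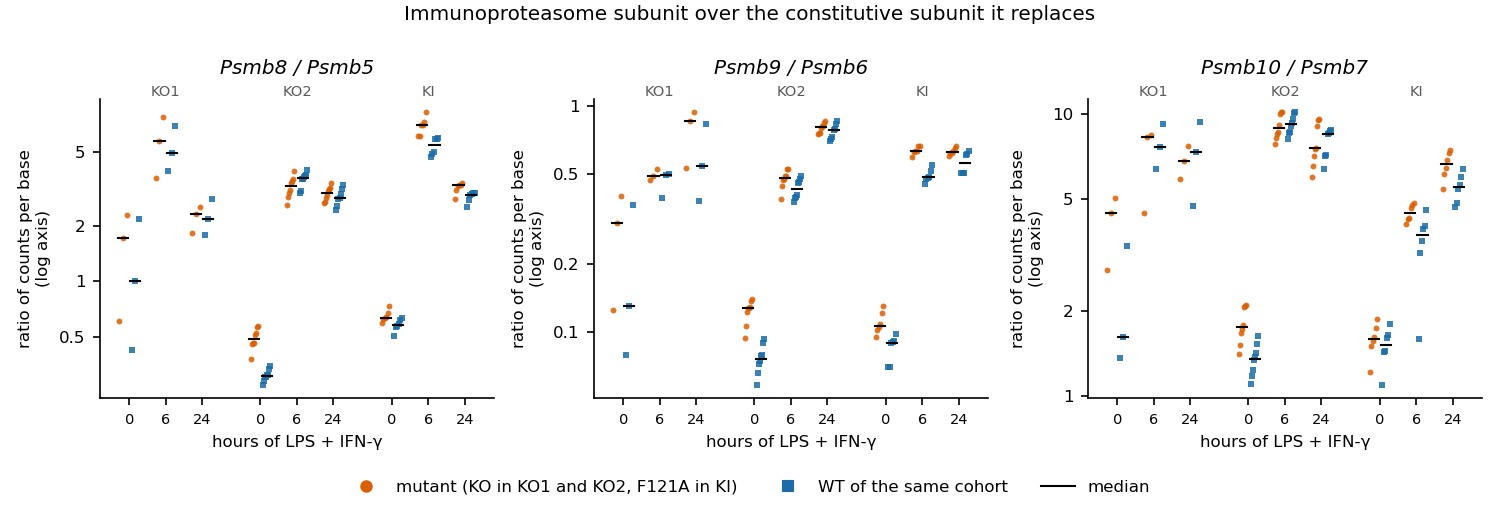
Ratio (log axis) of each immune subunit to its constitutive counterpart, both in counts per base of transcript, at 0, 6 and 24 h, with a point per KO1 culture or KO2 or KI library, a line at the median, and mutant left of WT. The medians of Psmb8 over Psmb5 peaked at 6 h in each cohort, whereas the Psmb9 over Psmb6 medians stayed below 1 throughout.

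Relative to the median gene, 6 of the 7 widely expressed alpha ring genes rose at 6 h in WT macrophages of every cohort and all 7 rose at 24 h. Psma5 had the largest 24 h rise of the ring, 2.84 ± 0.26 for KO1, 2.14 ± 0.13 for KO2 and 2.82 ± 0.11 for KI, with KI WT ranges of 25.7 to 37.5 CPM (median 31.3) at 0 h, 139 to 217 CPM (median 169.9) at 6 h and 179 to 249 CPM (median 219) at 24 h. Its 0 h libraries stood below all stimulated ones. Psma1 was the exception. It had 206, 193 and 179 CPM at 0 h, 93.9, 103 and 136 CPM at 6 h and 432, 395 and 457 CPM at 24 h in KO1 WT, low at 6 h in every culture and high at 24 h. The 6 h fall was -0.80 ± 0.25 for KO1, -0.29 ± 0.10 for KO2 and -0.34 ± 0.09 for KI and the 24 h rise 1.15 ± 0.25 for KO1, 0.68 ± 0.10 for KO2 and 1.0 ± 0.09 for KI. Psma8 counts were close to the floor: at 6 h in KO1 WT the 3 cultures had 0.463, 0 and 0 CPM, with 0.901, 1.01 and 0.229 CPM at 0 h, and it was not tested in KO2. The 4 structural beta genes, Psmb1 to Psmb4, all rose at 24 h, between 0.63 and 1.83 on the log2 scale. Over the 15 constitutive 20S genes, 9 rose and 2 fell at 6 h in KO1, 13 and 1 of 14 tested in KO2, and 11 and 2 in KI, and on library totals 4 rose and 6 fell, 8 and 5, and 8 and 6 in the same order. At 24 h 14 rose and none fell in each cohort, and on library totals 11, 13 and 11 rose, with 2 falls in KI. Most of all genes tested were called lower on library totals at both times in WT of each cohort.

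Most 19S genes were higher at 24 h relative to the median gene, while on library totals 8, 10 and 6 of the 17 were, in KO1, KO2 and KI. At 6 h 3 of its 17 genes rose and 5 fell in KO1, 12 rose and 1 fell in KO2 and 13 rose and none fell in KI, a split that library totals turned round (0 higher and 14 lower, 1 and 13, 1 and 12). At 24 h 16, 15 and 17 genes rose and none fell, and on library totals 1, 2 and 3 fell. As said for the core, library totals called most of all genes tested lower at both times. Psmd11, a non-ATPase subunit of the lid, had the largest 24 h rise of the non-ATPases in KO1 and KI (2.03 ± 0.24 and 1.54 ± 0.09). Among the ATPases Psmc1 had 14.4, 11.8 and 11.4 CPM at 0 h, 5.56, 7.43 and 7.29 CPM at 6 h and 68.8, 57.4 and 72.3 CPM at 24 h in KO1 WT, and its fold change was 2.40, 1.12 and 1.01 in KO1, KO2 and KI at 24 h. Among the smallest 24 h rises past the threshold in the base and lid were those of Psmd6 (0.59, 0.27 and 0.35) and Psmd12 (0.83, 0.27 and 0.54), which turned negative on library totals. The KO1 rise of Psmd6 did not pass without culture S33, S35, S36 or S38 (edgeR adjusted p = 0.247, 0.144, 0.0598 and 0.0736). Psmd1, the large scaffold of the base, fell at 6 h in KO1 and KO2 (-0.94 ± 0.23 and -0.65 ± 0.09) and was -0.10 ± 0.11 in KI without passing the test.

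Chaperones of assembly did not move together. Psmg1 and Psmg2, which form the dimer that starts the alpha ring, had the lowest fold changes of the members called at 6 h in KO2, and were among the 3 lowest in KO1 and KI. Psmg1 had 9.21, 7.81 and 4.96 CPM at 0 h, 2.01, 2.42 and 0.331 CPM at 6 h and 4.39, 4.38 and 5.45 CPM at 24 h in KO1 WT, so all 3 cultures were low at 6 h. In KO2 WT it ran at 5.25 to 8.96 CPM (median 6.90), 1.33 to 5.71 CPM (median 2.79) and 4.09 to 7.14 CPM (median 6.39). Its 6 h fold change was -2.19 ± 0.44 for KO1, -1.38 ± 0.23 for KO2 and -1.76 ± 0.26 for KI and that of Psmg2 -2.34 ± 0.37 for KO1, -1.20 ± 0.25 for KO2 and -1.06 ± 0.24 for KI, while at 24 h Psmg1 was -0.63, -0.27 and -0.32 and Psmg2 -0.19, -0.33 and 0.07, none past the threshold. Psmd10 (gankyrin), a chaperone of 19S base assembly on the X chromosome, rose instead: KI WT libraries had 12.4 to 17.8 CPM (median 13.4) at 0 h, 57.7 to 75.9 CPM (median 66.2) at 6 h and 45.9 to 75.9 CPM (median 60.1) at 24 h. Its fold change at 6 h was 2.32 ± 0.32 for KO1, 2.16 ± 0.12 for KO2 and 2.26 ± 0.12 for KI. The other base chaperones, Psmd5 and Psmd9, were -0.96, -0.22 and -0.13 and -0.49, -0.32 and -0.07 in KO1, KO2 and KI at 6 h, past the threshold in KO1 alone, and 25.5% of the exon bases of Psmd9 overlap Gm26745. Psmf1, the inhibitor PI31, rose at 24 h by 1.21, 0.39 and 0.96; on library totals it was -0.07 in KO2.

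**Figure D3:**
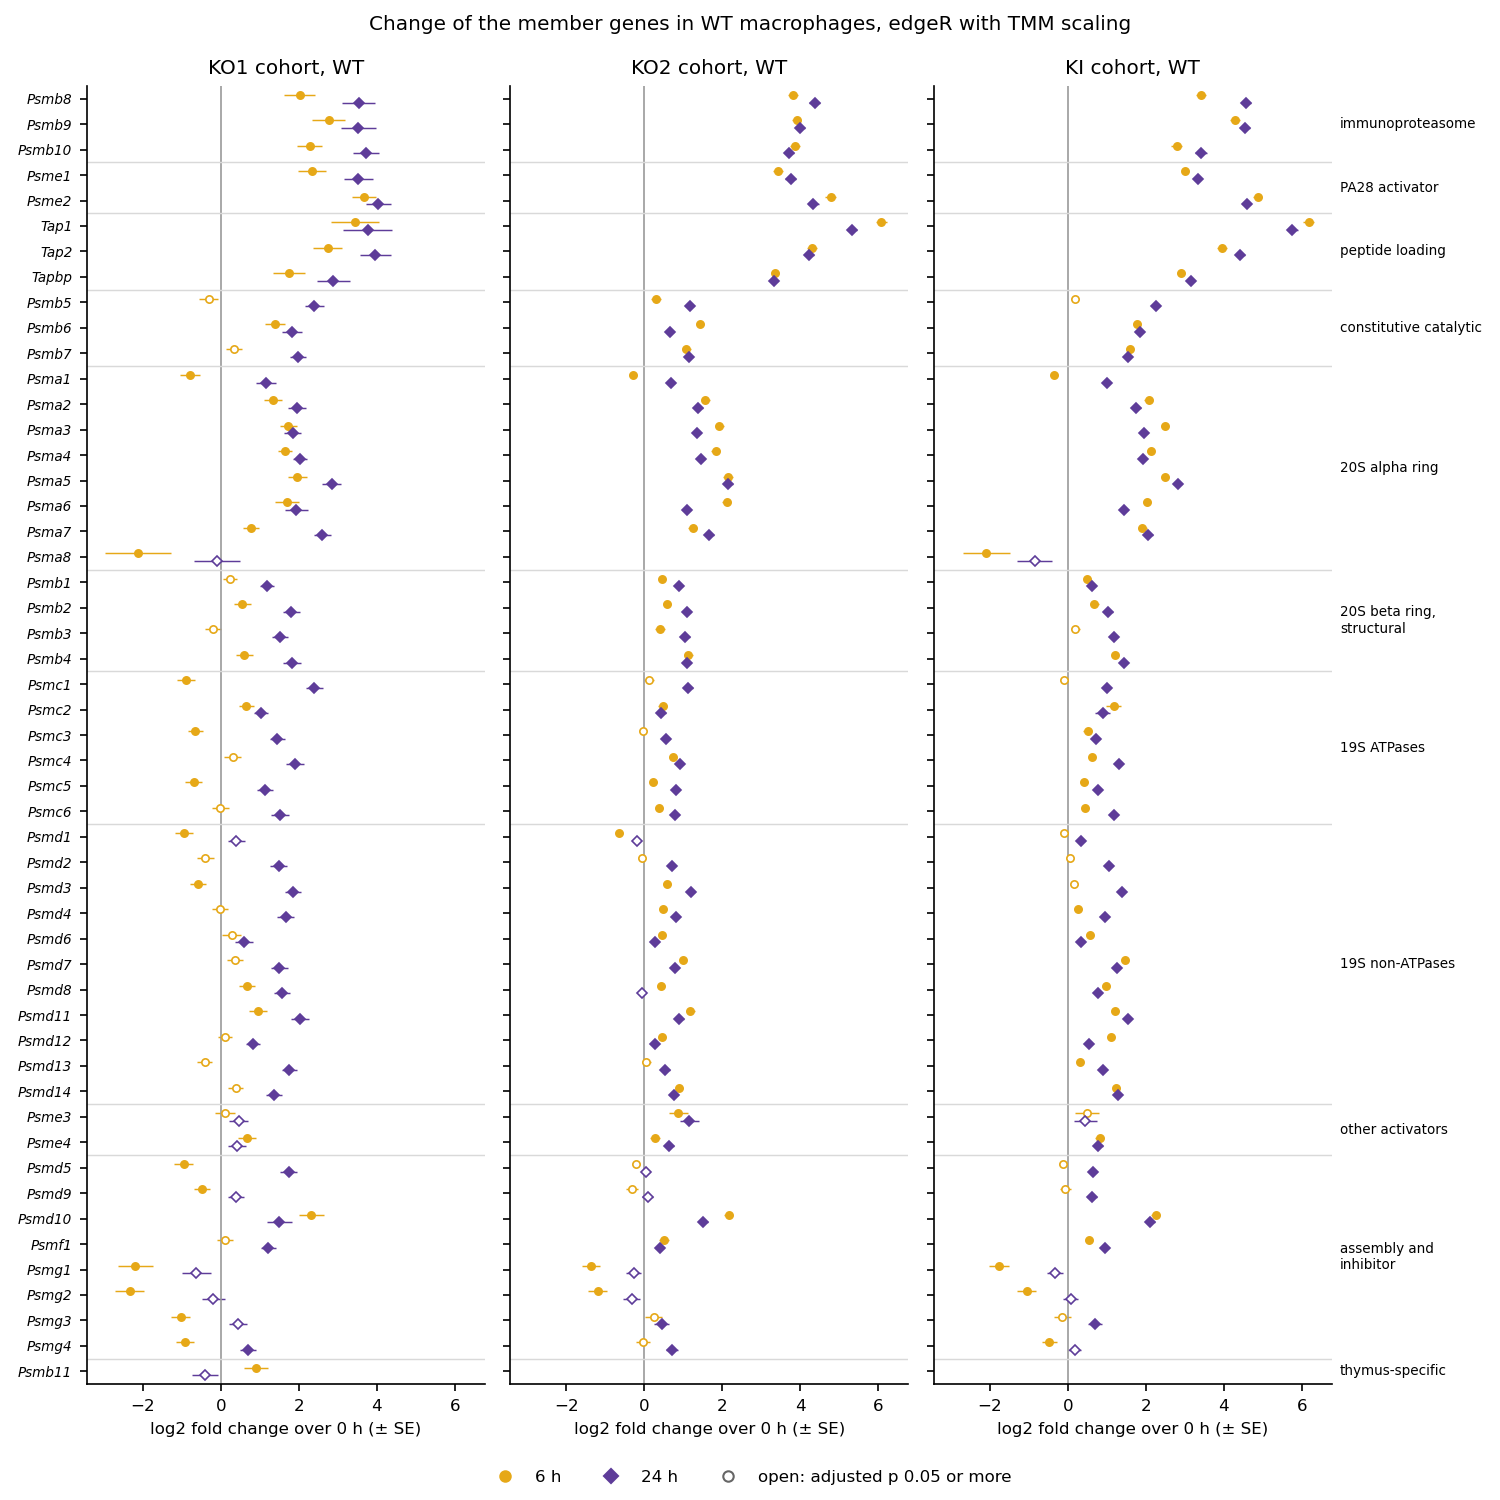
log2 fold change of each member in WT macrophages at 6 h and 24 h over 0 h (edgeR, TMM), genes ordered by role and cohorts side by side, with bars for the standard error. At 24 h the interferon-type genes with Tap1, Tap2 and Tapbp have the highest values in each cohort. Open symbols did not pass the test, and the values are relative to the median gene.

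Between 6 and 24 h more members rose than fell. In WT macrophages 37 members rose and 2 fell in KO1, where 54.6% of genes were called (28.7% higher and 25.9% lower). In KO2 23 rose and 11 fell, against 59.0% (31% and 28%), and in KI 28 rose and 9 fell, against 65.4% (33.6% and 31.8%). Library totals gave 37 and 2, 34 and 3, and 36 and 2, and for all genes 3598 and 3239, 5231 and 1758, and 5119 and 2492. Psmb5 rose by 2.71 ± 0.25 for KO1, 0.87 ± 0.12 for KO2 and 2.07 ± 0.11 for KI, the largest rise between these times of any member in KI, and Psmc1 rose by 3.29 ± 0.24 in KO1, the largest there. Tap1 fell by 0.75 on the log2 scale in KO2 and by 0.41 in KI, where on library totals it was -0.08 and not called. In KO1 the rises of Psme1, Tap2 and Tapbp rested on the cultures used: without culture S33 their adjusted p-values were 0.0703, 0.0711 and 0.193 in edgeR's test.

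Mutant macrophages were compared with their own 0 h group in the same way. At 6 h over 0 h 22 members rose and 13 fell in KO1 KO, where 55.3% of genes were called (25% higher and 30.4% lower). Members split 37 and 3 in KO2 KO, against 74.3% (33.8% and 40.5%), and 36 and 9 in KI F121A, against 74.5% (36.6% and 37.9%). On library totals the splits were 7 and 33, 20 and 19, and 16 and 29, and for all genes 1167 and 8872, 1901 and 7256, and 1759 and 8482. At 24 h 42 rose and 1 fell in KO1 KO, against 38.5% of genes (19.9% and 18.5%), 43 and 1 in KO2 KO, against 58.3% (27.7% and 30.6%), and 45 and 2 in KI F121A, against 66.3% (33.9% and 32.4%). Library totals gave 20 and 8, 26 and 9, and 24 and 14, and for all genes 886 and 8992, 1425 and 7222, and 1543 and 8297. Between 6 and 24 h 35 rose and 1 fell in KO1 KO, against 48.1% of genes (26.6% and 21.5%). The splits were 19 and 14 in KO2 KO, against 55.5% (28.3% and 27.1%), and 31 and 7 in KI F121A, against 65.1% (32.7% and 32.4%). Library totals gave 40 higher and 0 lower in KO1 KO, 23 and 6 in KO2 KO and 39 and 0 in KI F121A for this interval. All genes split 3981 and 2049, 3719 and 2279, and 5007 and 2654 there. The members that fell at 24 h were Psma8 in KO1 KO (-2.21), Psmd1 in KO2 KO (-0.35) and Psma8 and Psmg1 in KI F121A (-1.39 and -0.81). Psmb8, Psmb9, Psmb10, Psme1 and Psme2 rose at both times in all 3 mutants, and on library totals 3 of the 5 still passed at 6 h in KO1 KO, where Psmb8 was 0.13 and Psmb10 0.35. At 24 h the fold change of Tap1 was 2.93 ± 0.60 in KO1 KO, 4.18 ± 0.12 in KO2 KO and 5.99 ± 0.13 in KI F121A, and that of Psmb8 2.67 ± 0.41, 3.72 ± 0.13 and 4.55 ± 0.13.

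At rest, KO2 knockout macrophages had more RNA of 3 of the 5 interferon-type genes (Psmb8, Psmb9 and Psme1) and of Tap1, Tap2 and Tapbp than their controls. Tap1 ran at 54.8 to 80.5 CPM (median 76.5) in KO and 31.5 to 45.1 CPM (median 36.3) in WT, Tapbp at 373 to 497 CPM (median 439.6) in KO and 222 to 305 CPM (median 270.1) in WT, and Psmb8 at 58.98 to 88.8 CPM (median 70.3) in KO and 39.9 to 58.4 CPM (median 50.4) in WT. For these 3 genes every KO library stood above every WT library. How many of all genes separate in this way between the genotypes was not counted. The fold change of KO over WT was 0.98 ± 0.11 for Tap1 (adjusted p = 1.63e-09), 0.72 ± 0.09 for Tapbp (2.6e-08) and 0.50 ± 0.12 for Psmb8 (0.00232) in edgeR's test. Psmb9 had 19.9 to 34.5 CPM (median 26.8) in KO and 13.7 to 21.7 CPM (median 17.3) in WT, with 7 of 8 KO libraries above all WT ones, and a fold change of 0.64 ± 0.11 (adjusted p = 3.18e-05). Psme1 (0.56 ± 0.13) and Tap2 (0.37 ± 0.12) were also higher. Psmb10 was 0.30 ± 0.12 (adjusted p = 0.118) and Psme2 0.14 ± 0.13 (0.622), neither past the threshold, and Psmb5, Psmb6 and Psmb7 were -0.16, -0.06 and -0.13, not past it either. Lower in KO were Psma5 (-0.44 ± 0.13), Psmd8 (-0.35 ± 0.10), Psmd6 (-0.27 ± 0.08) and Psmd12 (-0.26 ± 0.08). In all, 6 members were higher and 4 lower, against 8.28% of all genes called in this comparison (3.84% higher and 4.45% lower). Library totals moved the median gene of KO over WT by 0.19 here and gave 8 higher and 0 lower: the same 6 with Psmb10 and Psme2. Of all genes, 1008 were called higher and 165 lower on that scale. Summing libraries with neighbouring numbers left 4 calls, Psmb9, Psme1, Tap1 and Tapbp. Psmb8 over Psmb5 was 0.382 to 0.570 (median 0.489) in KO and 0.276 to 0.348 (median 0.307) in WT at 0 h, without overlap. Sex differs with genotype in this cohort, as stated above, and its share in these differences cannot be told apart from that of the knockout.

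After stimulation these differences in KO2 did not pass the test on the TMM scale. At 6 h Tap1 ran at 1769 to 3005 CPM (median 2239) in KO and 2169 to 2875 CPM (median 2463) in WT, and Psmb8 at 527 to 836 CPM (median 644) in KO and 546 to 928 CPM (median 677) in WT, with wide overlap. No member was called by edgeR (15.4% of genes were), 7 had an unadjusted p under 0.05, and DESeq2 called 1, Psma6. Library totals, which moved the median gene by 0.21, called 13 members as higher. Psmb9, Psme1 and Tap2 from the 6 higher at rest were among them. On that scale 2186 of all 10794 genes tested were called higher and 336 lower. On the TMM scale Psmb9 at 6 h was 0.28 ± 0.10 (adjusted p = 0.0512). At 24 h 4 members were lower in KO, against 11.3% of genes called (6.26% higher and 5.06% lower). These were Psma7 (-0.38 ± 0.12), Psmb1 (-0.37 ± 0.08, edgeR adjusted p = 0.000634), Psmc1 (-0.37 ± 0.12) and Psmc3 (-0.30 ± 0.10). Psmb1, a structural beta subunit, ran at 107 to 153 CPM (median 125) in KO and 152 to 177 CPM (median 168) in WT, with the ranges overlapping at their edge. On library totals, where 557 of all genes were called higher and 454 lower, and with DESeq2 size factors 2 members were called. The genotype effect itself differed between times for 7 members (edgeR, 11.9% of genes called), namely Tap1 (adjusted p = 2.56e-08), Tapbp (3.31e-07), Psmb8 (0.00572), Psmb9 (0.00613), Psme1 (0.00631), Psma6 (0.04) and Psmb10 (0.047). For Tap1 the genotype effect at 6 h minus that at 0 h was -1.15 ± 0.16 and at 24 h minus 0 h -1.15 ± 0.16; for Tapbp these were -0.81 ± 0.13 and -0.90 ± 0.13, and for Psmb8 -0.57 ± 0.16 and -0.65 ± 0.16. For Psma6 the 6 h difference was -0.02 ± 0.15 and the 24 h one 0.45 ± 0.15, the 24 h value being positive where those of Tap1, Tapbp and Psmb8 were negative.

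In KI at rest no member was called between F121A and WT macrophages. Tap1 ran at 25.7 to 34.7 CPM (median 29.8) in F121A and 26.8 to 31.01 CPM (median 28.6) in WT. Tapbp ran at 211 to 308 CPM (median 266) in F121A and 279 to 316 CPM (median 299) in WT, with 5 of 6 F121A libraries below all WT ones. Psmb9 ran at 12.9 to 16.9 CPM (median 14.4) in F121A and 8.77 to 13.7 CPM (median 11.4) in WT, with 4 of 6 F121A libraries above all WT ones. For Tap1, Tapbp and Psmb9 the groups overlap, whereas for Psmd2 all 6 F121A libraries lay below every WT library. How many of all genes separate so at rest was not counted. By edgeR 0 members were called, against 2.94% of genes; 6 had an unadjusted p under 0.05, and DESeq2 called 1, Psmd2. Without WT 6 h replicate 5, the library low in Tap1, Psmb9 was called at 0 h and Tap1 joined Psmd10 at 24 h. At 6 h 6 members were lower in F121A, against 11.5% of genes called (8.01% higher and 3.49% lower). These were Psmd5 (-0.36 ± 0.11), Psma1 (-0.35 ± 0.09), Psma2 (-0.35 ± 0.11), Psma6 (-0.31 ± 0.10), Psmc6 (-0.29 ± 0.09) and Psmd7 (-0.23 ± 0.08), genes of the core, the base and lid and a base chaperone. Psma6 ran at 166 to 197 CPM (median 194) in F121A and 202 to 270.1 CPM (median 234) in WT, without overlap. Psme1, which was not called, separated the other way, at 564 to 610 CPM in F121A and 456 to 557 CPM in WT. How many of all genes separate in this way at 6 h was not counted. The number of members called was 10 with DESeq2 and 3 with no filter on low counts. It was also 10 without F121A 0 h replicate 5, whose TMM factor of 1.181 stands below the other 0 h libraries of its group. Beside these calls, neutrophil markers summed to 5.72 to 9.78 CPM in F121A and 13.9 to 20.0 CPM in WT at 6 h. Retnlg and Elane were at 0 in both and Ly6g in WT, and 2 of the 6 markers had a median of at least 1 CPM in each group. The part of these markers in the calls was not tested. The ratio of Psmb8 to Psmb5 at 6 h was 6.13 to 8.23 (median 7.03) in F121A and 4.71 to 5.97 (median 5.44) in WT, without overlap. Psmb8 (0.16 ± 0.11) and Psmb5 (-0.19 ± 0.11) did not pass the test one by one. The ratio of Psmb9 to Psmb6 also separated, at 0.598 to 0.670 in F121A and 0.452 to 0.548 in WT. That of Psmb10 to Psmb7 overlapped (4.09 to 4.83 and 1.59 to 4.58). Tap1 was 0.31 ± 0.11 at 6 h (adjusted p = 0.0553) and Tapbp 0.29 ± 0.10 (0.0559) by edgeR, and both passed with DESeq2 (adjusted p = 0.0388 and 0.0294). Without the WT 6 h library whose labels conflict, 7 members were called at 6 h, Tap1 and Tapbp as higher and 5 as lower, Psmd7 no longer among them. At 24 h 1 member, Psmd10, was lower, against 7.2% of genes called (3.42% higher and 3.78% lower). Psmd10 ran at 37.3 to 49.1 CPM (median 43.02) in F121A and 45.9 to 75.9 CPM (median 60.1) in WT, with the 2 ranges overlapping at their edge. Its fold change was -0.47 ± 0.11 (edgeR adjusted p = 0.00317). It was also the 1 member whose genotype effect differed between times in KI (adjusted p = 0.00866, 8.29% of genes called), with -0.70 ± 0.16 at 24 h minus 0 h.

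KO1, with 3 cultures a group, had no member called at 0, 6 or 24 h by edgeR, where 0.0219%, 0.0219% and 0.0073% of all genes were called (0.0146%, 0.0146% and 0.0% as higher). At those times 2, 0 and 1 members had an unadjusted p under 0.05. DESeq2 called none either, and limma's voom on the single libraries called 1, Psmb9 at 0 h. Tap1 at 0 h had 284, 34.5 and 242 CPM in the KO cultures and 108, 42.6 and 251 CPM in the WT cultures, so that 1 KO culture stood far below the others and the WT cultures were widely spread. Psmb8 had 237, 86.2 and 205 CPM in KO and 105, 57.5 and 148 CPM in WT. The fold change of KO over WT at 0 h was 0.48 ± 0.56 for Tap1 and 0.77 ± 0.39 for Psmb8, with standard errors several times those of KO2. At 24 h Tap1 had 1381, 1448 and 1450 CPM in KO and 1696, 1908 and 1843 CPM in WT, without overlap. Psme1, with 589, 606 and 676 CPM in KO and 705, 682 and 748 CPM in WT, also separated. Psmb8 overlapped (1200, 974 and 1175 against 997, 1140 and 1454 CPM), and Psmb11, at the floor, was higher in every KO culture. How many of all genes separate in this way was not counted. Genotype by time was called for 0 members in KO1 (0.0% of genes) by edgeR and by DESeq2, with 2 at an unadjusted p under 0.05.

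Set directly against each other, the KO over WT difference of KO2 exceeded the F121A effect for Tapbp at 0 h by 0.89 ± 0.20 log2 units (adjusted p = 0.00252, edgeR over all 3 cohorts). This was the 1 member called, where 2.15% of genes were (0.688% higher and 1.46% lower). Tap1 differed by 0.90 ± 0.27 at 0 h (adjusted p = 0.0587), not past the threshold, and passed it without a filter on low counts (0.0268). At 6 h the member called by edgeR was Psmd5 (0.64 ± 0.16, adjusted p = 0.00379, 8.97% of genes, 3.78% as higher). At 24 h it was Psmd10 (0.68 ± 0.19, adjusted p = 0.0179, 4.82% of genes, 2.73% as higher). With libraries summed by neighbouring numbers none of the 3 was called. By Xist and Ddx3y, sex differs with genotype in KO2 but not in KI or KO1. Knockout and sex thus cannot be told apart in these differences, including that of Psmd10, which lies on the X chromosome. Between the KO2 and KO1 knockout effects no member differed by edgeR at 0, 6 or 24 h (0.703%, 0.681% and 0.299% of genes called), with 8, 3 and 1 at an unadjusted p under 0.05 and 0 by DESeq2 each time. That does not show the cohorts to be alike, given the spread of the KO1 cultures. The loss of Becn1 RNA was also smaller in KO1. Its medians at 0 h were 9.95 CPM in KO and 29.9 CPM in WT of KO1, and 3.4 and 34.1 CPM in KO2.

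**Figure D4:**
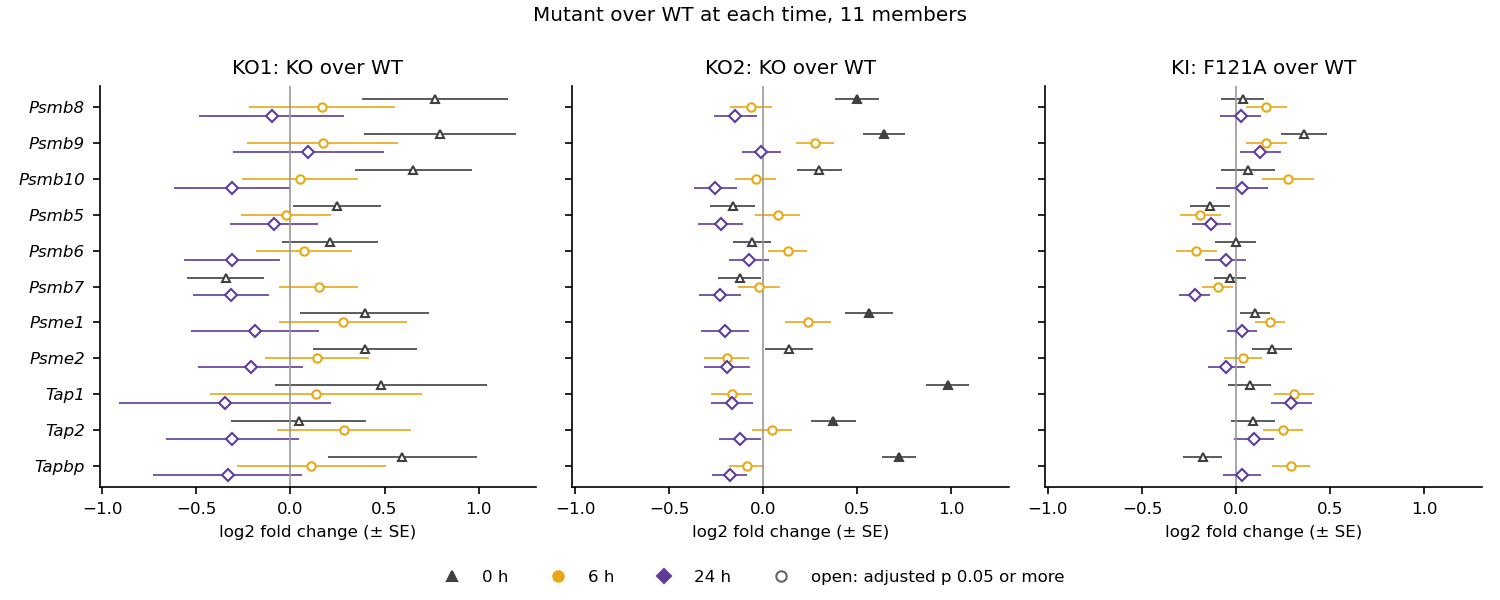
log2 fold change of mutant over WT (edgeR, TMM) at 0, 6 and 24 h for 11 members, with bars for the standard error. They are Psmb5 to Psmb10, Psme1, Psme2, Tap1, Tap2 and Tapbp, with KO1, KO2 and KI side by side. In KO2 at 0 h Tap1 stands at 0.98 and Tapbp at 0.72, both near 0 at 6 and 24 h. In KI at 0 h none of the 11 passed the test.

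Genes outside the family that act on it or with it were read from lists of the pathway. Of 6 regulators of its transcription, 4 rose and 1 fell at 24 h in WT of each cohort. Irf1, the interferon-induced factor at Tap1 and Psmb9, rose by 6.23, 6.45 and 6.25 in KO1, KO2 and KI and Nlrc5, the class I transactivator, by 2.57, 4.30 and 3.79, and Ddi2, the protease that activates Nrf1, changed by -1.80, -0.80 and -1.60. At 6 h 3, 4 and 4 of the regulators rose and 1, 1 and 2 fell. Of 8 partners in class I loading 7, 8 and 8 rose at 24 h, among them Tapbpl (4.24, 4.28 and 4.77), H2-K1 (2.10, 2.27 and 2.59) and B2m (1.72, 1.87 and 2.38), and at 6 h 1, 5 and 5 rose and 1, 2 and 2 fell. Of 11 partners of the proteasome 6, 7 and 7 rose at 24 h and 1 fell in each cohort. Pomp, a chaperone of proteasome assembly, was at 2.39, 1.74 and 2.45 and Adrm1, a ubiquitin receptor, at 2.0, 0.94 and 1.20. At 6 h 5, 6 and 8 of these partners rose and 2, 1 and 0 fell. Beside these counts, 21.3%, 29.6% and 33.9% of all genes were called higher at 24 h in WT of KO1, KO2 and KI, and 20.6%, 29.7% and 29.9% lower. At 6 h the shares were 25.7%, 32.5% and 36.7% higher and 31.1%, 38.3% and 36.8% lower. In KO2 at 0 h Nlrc5 (0.80 ± 0.18) and H2-K1 (0.73 ± 0.10) were higher in KO, beside Tap1, Tapbp and Psmb9, while the chaperones Calr (-0.78 ± 0.16) and Pdia3 (-0.54 ± 0.10) were lower. In KI at 0 h H2-K1, H2-D1 and B2m were lower in F121A (-0.46, -0.42 and -0.41), and Ubqln1, a shuttle of tagged proteins, was higher (0.83). At 6 h H2-K1 was still higher in KO2 KO (0.50) and Pdia3 lower (-0.41), while in KI Usp14, a deubiquitinase of the regulator, and the trimming peptidase Erap1 were lower in F121A (-0.45 and -0.35). At 24 h Pomp (-0.46 ± 0.13), Ddi2 (-0.95), Calr (-1.17) and Pdia3 (-0.68) were lower in KO2 KO. In KI at 24 h Calr (-0.69) and Canx (-0.29) were lower in F121A, and Irf1 (0.31), Nlrc5 (0.29) and Tapbpl (0.35) were higher in F121A.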

How the data were processed

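The values are raw counts per gene symbol as deposited by the authors in 3 tables, 1 per cohort, whole numbers without normalization. Per the labels' protocols, libraries were made from oligo-dT primed cDNA (Smart-Seq2) without molecular identifiers or strand, and per the submitters' processing notes TopHat, HTSeq and mm10 were used; versions are not given in the sources used here. Every column matched a sample. Depth limits low genes such as Psma8 and Psmb11. Of 467 pairs of libraries within groups none agreed within sampling noise (chi-square per degree of freedom at least 2.79), so all were used.

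Groups came from titles. KO1 repeats were summed per sample number. Each cohort was fitted over its 6 groups with edgeR 4.0.16 in R 4.3.3 (TMM, filterByExpr, quasi-likelihood F-test, Benjamini-Hochberg over all genes tested), the joint fit over all 18 groups gave differences between genotype effects, and standard errors are the fold change divided by the square root of F. The fit was tested on simulated data. Alternatives were DESeq2 1.42.0, its size factors, no filter on low counts, the 2 groups alone, a replicate block, samples or cultures left out, libraries summed by neighbouring numbers and limma 3.58.1 voom; library totals without scaling and leaving out each of 2 KI libraries were chosen after seeing the data. Genes named are Psmb5 to Psmb10, Psme1, Psme2, Tap1, Tap2 and Tapbp throughout, the 3 highest and 3 lowest called members of a comparison, all called where 5 or fewer, up to 3 called genes per pathway list, and Becn1; the other members described for their role (such as Psma5 and Psmd11) were chosen after their values were seen. 1 item of the pathway lists and motifs is not reported here. The members and lists were chosen with earlier results of these data known. Same-numbered samples deviated together in every pair (r over 0.1) only for KO1 KO at 6 and 24 h (r = 0.132 to 0.269), of 6 pairs of KO1 groups that share numbers; the labels do not say that a number marks 1 animal. Exon overlaps and positions are from GENCODE vM21 on mm10. Tables and figures were made with Python 3.11.15, pandas 2.3.3 and matplotlib 3.10.9.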

Additional observations from a re-analysis of the deposited data

Results flagged for a closer look

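Single libraries stood far from the others of their group in 7 of 132 groups of the 11 members named throughout, and chance gives about 1 in 20. In KO2, Psme2 had 650.3 CPM in KO 24 h replicate 2, above all others of its group, the lowest of which had 438 CPM, Tapbp had 3311 CPM in WT 6 h replicate 4 (2501 to 2755), Psmb7 had 59.3 CPM in KO 6 h replicate 7 (39.9 to 48.9) and, in WT 24 h replicate 9, Psmb6 had 283 CPM (175 to 211) and Psmb7 63.0 CPM (45.1 to 51.01). In KI, Tap1 had 1309 CPM in WT 6 h replicate 5 (2112 to 2362) and Tap2 had 395 CPM in WT 24 h replicate 3 (334 to 342).

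The genotype effect differed between times in KO2 for Tap1 (edgeR adjusted p = 2.56e-08), Tapbp (3.31e-07), Psmb8 (0.00572), Psmb9 (0.00613), Psme1 (0.00631), Psma6 (0.04) and Psmb10 (0.047), and in KI for Psmd10 (0.00866). The KO over WT difference of KO2 minus the F121A effect was 0.89 ± 0.20 for Tapbp at 0 h, 0.64 ± 0.16 for Psmd5 at 6 h and 0.68 ± 0.19 for Psmd10 at 24 h (edgeR adjusted p = 0.00252, 0.00379 and 0.0179). Sex differs with genotype in KO2 and not in KI, so knockout and sex cannot be told apart in these values.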

How the results depend on the processing

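Of the values of named genes under the alternatives, 4091 kept their direction and side of the threshold, 40 passed and 112 no longer passed it, and 26 turned sign, all on library totals without scaling. Of these, 7 were called on both scales, 13 under TMM only and 6 on library totals only; another 128 values called under neither setting changed sign as well. Of the counts of called members, 349 stayed within 1.5 times and 33 moved. On library totals the values that turned were, at 6 h over 0 h, Psmb7 -0.71 in KO1 WT, Psmb6 -0.11 and Psmb7 -0.48 in KO1 KO, and Psmb5 -0.54 in KO2 WT, -0.25 in KO2 KO, -1.03 in KI WT and -1.18 in KI F121A. At 24 h over 0 h they were Psmd12 -0.20, Psmd6 -0.44 and Psmg4 -0.33 in KO1 WT, Psmb1 -0.35 and Psmd9 -0.58 in KO1 KO, Psmd12 -0.18, Psmd6 -0.19 and Psmf1 -0.07 in KO2 WT, Psmb6 -0.01, Psmd5 -0.39 and Psmd8 -0.38 in KO2 KO, Psmd1 -0.54, Psmd12 -0.34 and Psmd6 -0.53 in KI WT and Psmd6 -0.57 in KI F121A. At 24 h over 6 h they were Tap2 0.28 and Tapbp 0.34 in KO2 WT and Psmb7 0.28 and Psme2 0.053 in KI WT. By construction this setting moves all genes of a library by 1 factor; which scale is nearer to RNA per cell was not tested.

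Counts of called members moved as follows. On library totals they were 28 for KO1 KO 24 h over 0 h, 13 and 2 for KO2 KO over WT at 6 and 24 h, 12 for KO2 genotype by time, and 2 and 12 for KO2 minus KI at 0 and 6 h. For KO2 minus KI that scale called 127 of all genes higher and 81 lower at 0 h, and 1090 and 347 at 6 h. DESeq2 gave 1 for KO2 KO over WT at 6 h, 1, 10 and 2 for KI F121A over WT at 0, 6 and 24 h, 3 for KI genotype by time and 2 for KO2 minus KI at 0 h, and its size factors gave 2 for KO2 KO over WT at 24 h. With no filter they were 1 and 3 for F121A over WT at 0 and 6 h, 3 for KI genotype by time, and 2 and 0 for KO2 minus KI at 0 and 24 h. Libraries summed by neighbouring numbers gave 4 for KO2 KO over WT at 0 h, 2 for genotype by time, and 0 for KO2 minus KI at 0, 6 and 24 h. Voom on single libraries gave 1 for KO1 KO over WT at 0 h. Without KI WT 6 h replicate 5, 1 and 2 members were called for F121A over WT at 0 h (Psmb9) and 24 h (Tap1 and Psmd10), and at 6 h the count was 7 without that library and 10 without F121A 0 h replicate 5. Leaving out each KO1 culture gave 1 to 2 for KO2 minus KI at 0 h (2 without S34, S35, S36 or S37) and 0 to 1 for KO2 minus KO1 at 6 h (1 without S37). The cause of these moves was not tested.

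The KO1 numbers deviated together in every pair for KO at 6 and 24 h, where the replicate block gave 38 calls for 24 h over 6 h, against 36 without it, and in KO1 WT at 0 and 6 h each sample correlated best with its own number (r = 0.0903 to 0.322). Elsewhere samples share only a number. With the replicate block, 10 members were called for F121A over WT at 6 h, against 6 without it, and 10, 5, 6 and 1 for KO2 KO over WT at 0 and 24 h and genotype by time in KO2 and KI. The KO1 cultures and the low counts of Psma8 and Psmb11 limit what could be detected.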
